A study of Mus musculus with 8 samples.

Results

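The 10 genes described here carry out excitation-contraction coupling and calcium handling in skeletal muscle: Cacna1s, Cacng1, Stac3, Ryr1, Casq1, Casq2, Atp2a1, Atp2a2, Sln and Pvalb. They were chosen by name for their known roles, with no measured value in the rule, but earlier results of these data were known by then. All 10 were found among the 16686 genes of the deposited table. RNA had been sequenced from the whole tibialis anterior (TA), a predominantly fast muscle of the lower leg, of 4 old WT and 4 old C2-/- mice, with 1 library per mouse. The C2-/- mice lack fast skeletal myosin binding protein-C, a thick filament protein of fast fibres, because a Neo cassette between LoxP sites stands in place of exons 2 to 22 of Mybpc2 in every cell. All mice of both genotypes were males on the FVBN background with an age of 22 months in their labels, although another entry of the labels gives a younger age. The question put to these libraries was which genes differ with the loss of fast myosin binding protein-C at old age.

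Contraction starts when an action potential spreads along the transverse tubules and moves the voltage sensor of the dihydropyridine receptor, which opens the ryanodine receptor of the sarcoplasmic reticulum by direct mechanical coupling. Calcium that is stored in the reticulum on calsequestrin then floods the cytosol and binds troponin on the thin filament. The muscle relaxes as parvalbumin binds the calcium and the sarcoplasmic reticulum calcium ATPases (SERCA) pump it back, and these steps are quickest in fast fibres. Since RNA came from whole muscle, fewer cells of a type and less RNA per cell cannot be told apart.

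No difference between old C2-/- and old WT mice was detected for any of the 10 genes. Their levels overlapped between the genotypes in every case, 0 of 10 passed an adjusted p of 0.05 with a change above 1.5-fold, and 0 of 10 had an unadjusted p under 0.05 (quasi-likelihood test of edgeR, adjusted after Benjamini-Hochberg). Among all 12542 tested genes, 0.0319% met the first rule, 5.29% had an unadjusted p under 0.05 (3.38% upward and 1.91% downward in C2-/- mice), and 3.25% had no overlap between the genotypes (2.61% higher and 0.638% lower). DESeq2 and limma-voom on the same 8 mice also gave 0 of 10 at an unadjusted p under 0.05. Of the 10 estimates 6 were higher and 4 lower in C2-/- mice, and their median log2 fold change was 0.00 beside −0.02 over all tested genes. Without WT replicate 2 these were 4 higher and 6 lower, with a median of −0.03. The range within a genotype exceeded the difference between the genotype means for each gene. Old WT replicate 2 held the highest or the lowest level for 6 of the 10 genes, near its share of 50.9% of all tested genes. WT replicate 4 was the highest mouse for 5 of the 10 genes, against 3.70% of all tested genes. WT replicate 3 was the lowest for 4, against 8.61%.

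The libraries held between 25425993 and 29747692 counts, so that 3 counts, taken as the smallest level that can be shown, corresponded to between 0.101 and 0.118 CPM (counts scaled by the total of the library), for counting error only. Mybpc2 lay between 5063 and 6865 CPM in the old WT mice, and between 3.95 and 38.1 CPM in the old C2-/- mice, of which replicate 3 was the highest. The genes listed as markers of fast fibres summed to between 177820 and 209570 CPM and those of slow fibres to between 36.4 and 73.0 CPM. The fast list included the general muscle genes Acta1 (48392 to 61234 CPM) and Ckm (20242 to 25013 CPM), so its sum is not a measure of fast fibres alone. The summed markers of fibroblasts lay between 277 and 436 CPM in WT and between 478 and 640 CPM in C2-/- mice, without overlap. WT replicate 2 stood apart from the other mice: it held the highest or the lowest CPM of the 8 mice for 50.9% of the tested genes, against 14.0% to 25.2% for each of the other 7. The results that rest on it are given with and without it.

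**Figure D1:**
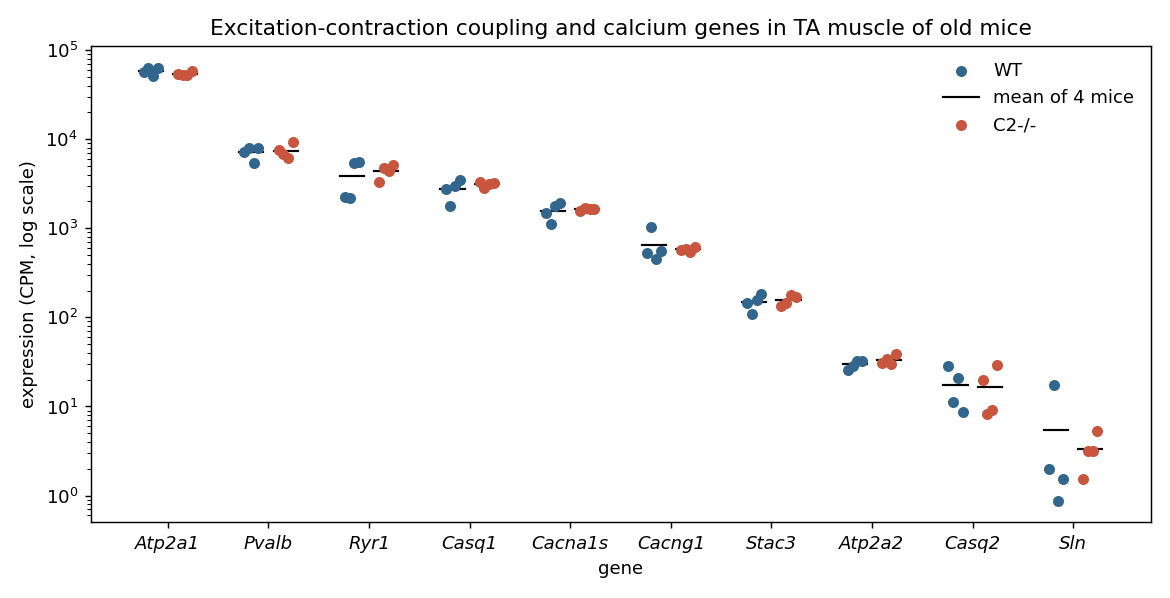
Level of each of the 10 genes (horizontal axis) in CPM on a log scale (vertical axis), with 1 point per mouse, 4 old WT beside 4 old C2-/- mice, and lines at the mean of each genotype. The points of the genotypes overlap for all 10 genes, and WT replicate 2 is the highest point for Sln (17.5 CPM) and Cacng1 (1028 CPM).

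Promoter sequence is shown for the calsequestrin pair, which differ in the fibres that use them, and for Pvalb, the buffer of fast fibres. The RefSeq table of promoters (GRCm38.p6) held 6 of the 10 genes in 7 windows, since Pvalb has 2 starts, and it held no entry for Cacng1, Stac3, Atp2a2 and Sln. The windows cover the 250 bases before the start that RefSeq gives. The deposited table uses another annotation, in which the Casq2 interval begins within this window, ahead of its MEF2 element and second E-box. Casq1 lies on the minus strand at chr1:172219896-172220145, Casq2 on the plus strand at chr3:102086165-102086414 and the upstream start of Pvalb on the minus strand at chr15:78206401-78206650. Capitals mark E-boxes (CANNTG, the same on both strands) and MEF2 elements (searched on both strands), motifs that the muscle regulatory factors and MEF2 factors are known to bind, and no matches overlapped.
Casq1: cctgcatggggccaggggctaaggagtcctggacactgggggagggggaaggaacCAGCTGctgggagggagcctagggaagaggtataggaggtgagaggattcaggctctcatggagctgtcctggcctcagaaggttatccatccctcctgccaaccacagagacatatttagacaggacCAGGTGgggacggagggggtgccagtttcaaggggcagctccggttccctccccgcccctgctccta
Casq2: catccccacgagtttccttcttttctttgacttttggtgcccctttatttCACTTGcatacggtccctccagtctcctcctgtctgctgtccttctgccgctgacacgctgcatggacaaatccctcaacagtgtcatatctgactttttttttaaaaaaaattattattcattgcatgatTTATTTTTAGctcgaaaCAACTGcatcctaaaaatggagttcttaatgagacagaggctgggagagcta
Pvalb: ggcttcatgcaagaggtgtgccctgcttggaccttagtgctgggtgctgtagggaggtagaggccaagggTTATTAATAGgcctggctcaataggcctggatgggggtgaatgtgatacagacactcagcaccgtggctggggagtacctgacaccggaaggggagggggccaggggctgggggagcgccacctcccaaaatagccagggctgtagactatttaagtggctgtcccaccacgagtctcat
Casq1 carried 2 E-boxes and no MEF2 element, Casq2 carried 2 E-boxes and 1 MEF2 element between them, and this Pvalb window carried 1 MEF2 element and no E-box. Of the 7 windows 5 held an E-box and 2 held a MEF2 element, against 66.2% and 2.92% of the 32851 windows of this length in the table. These matches describe the letters of the windows and no binding was measured.

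Levels between genes can be compared only per length, as the deposited TPM, which divides by the length of the transcript and the total of the library. Atp2a1, which encodes the SERCA of fast fibres, had by far the highest level of the 10, with 31378 ± 3179 TPM in old WT and 29328 ± 1981 TPM in old C2-/- mice (mean ± SD, n = 4 each), and was the 4th of all genes by mean TPM. Pvalb followed at 15673 ± 2330 and 16570 ± 2925 TPM, and Casq1 at 2782 ± 856 and 3179 ± 159 TPM. The ranges of these genes over the 8 mice did not touch each other or that of the next gene, Cacng1.

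The dihydropyridine receptor subunits and the release channel lay lower. Cacng1 had 1016 ± 363 TPM in WT and 936 ± 64.1 TPM in C2-/- mice, and its lowest mouse (774 TPM) lay above the highest mouse of Cacna1s (704 TPM) and of Ryr1 (741 TPM). Cacna1s at 570 ± 119 and 594 ± 28.0 TPM and Ryr1 at 501 ± 259 and 577 ± 117 TPM overlapped, and the order of these neighbours was within their spread. Stac3 stood below them at 173 ± 44.9 and 182 ± 26.9 TPM.

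The 3 lowest genes were those known best from slow fibres and heart. Sln had 21.1 ± 30.3 and 13.5 ± 6.56 TPM, Atp2a2 12.4 ± 2.02 and 14.2 ± 1.98 TPM, and Casq2 12.7 ± 6.46 and 12.3 ± 7.38 TPM in old WT and old C2-/- mice. These levels overlapped each other, and no order can be given among them. The slow isoforms thus made up a small share of each pair in all mice: Atp2a2 was 0.0350% to 0.0520% of the SERCA TPM of Atp2a1 and Atp2a2, and Casq2 was 0.183% to 0.756% of the calsequestrin TPM.

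Together the 10 genes took between 6.74% and 8.33% of all counts of a library, most of it through Atp2a1, which alone took between 5.11% and 6.37%. By counts Atp2a1 was among the 3 leading genes in each library.

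Cacna1s (gene ID 12292, chr1:136052805-136119822) encodes the pore-forming subunit of the dihydropyridine receptor, the voltage sensor itself. It was at 1490, 1108, 1765 and 1924 CPM in the old WT mice, and at 1566, 1669, 1663 and 1659 CPM in the old C2-/- mice. The C2-/- mice lay close together inside the range of the WT mice, whose lowest member was replicate 2. Its log2 fold change in C2-/- against WT was 0.00 (SE 0.16, 95% interval −0.36 to 0.37, adjusted p = 0.9998 by edgeR), and −0.12 without WT replicate 2. Gene positions are those of the deposited table, on GRCm38.

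Cacng1 (gene ID 12299, chr11:107703218-107716476) encodes the gamma subunit of the same receptor. The old WT mice had 533, 1028, 457 and 558 CPM, and the old C2-/- mice 574, 590, 545 and 613 CPM. WT replicate 2 stood well above the 7 others, which lay between 457 and 613 CPM. In C2-/- against WT the log2 fold change was −0.22 (SE 0.24, interval −0.75 to 0.31, adjusted p = 0.971 by edgeR), and 0.13 (unadjusted p = 0.306, adjusted p = 0.994) without that mouse. Per length, Cacng1 over Cacna1s was 3.66 in WT replicate 2 and between 1.25 and 1.72 in the other 7 mice.

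Stac3 (gene ID 237611, chr10:127501617-127508823) encodes an adaptor that the voltage sensor needs to reach the triad and to couple to the ryanodine receptor. It was at 146, 109, 158 and 184 CPM in WT and at 134, 146, 180 and 168 CPM in C2-/- mice. The genotypes overlapped, with WT replicate 2 lowest and WT replicate 4 highest. Its log2 fold change was 0.02 (SE 0.17, interval −0.37 to 0.40, adjusted p = 0.998 by edgeR), and −0.093 without WT replicate 2.

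Ryr1 (gene ID 20190, chr7:29003340-29125179) encodes the calcium release channel of the sarcoplasmic reticulum. The old WT mice had 2274, 2202, 5409 and 5514 CPM, and the old C2-/- mice 3348, 4745, 4408 and 5155 CPM. The WT mice fell into a low and a high pair with all 4 C2-/- mice between them. Its log2 fold change was 0.13 (SE 0.32, interval −0.57 to 0.84, adjusted p = 0.987 by edgeR), and −0.044 without WT replicate 2. The interval includes an increase of 1.5-fold.

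Ryr1 has the longest transcript of the 10 genes (15358 bases), and the share of reads from long transcripts differed between the libraries. Over 547 genes with transcripts of at least 8000 bases, the median log2 deviation from the mean of the 8 mice was −0.19 in WT replicate 1, −0.35 in WT replicate 2 and −0.08 in C2-/- replicate 1. In the 5 other mice it lay between 0.00 and 0.27. The 3 mice lowest in this measure were also the 3 lowest for Ryr1, but WT replicate 4, the highest for Ryr1, had only 0.0014, the lowest of the 5 others. By another measure, the slope of the deviation per doubling of transcript length over 8603 genes, WT replicate 4 was not the lowest of these 5. Its slope was 0.055, and theirs lay between 0.011 and 0.108. The 3 low mice had −0.084 (WT replicate 1), −0.146 (WT replicate 2) and −0.067 (C2-/- replicate 1). Without the 3 mice the log2 fold change of Ryr1 was −0.26 (unadjusted p = 0.0781, adjusted p = 0.905 by edgeR) in place of 0.13. The part of transcript length in the level of Ryr1 was not tested.

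**Figure D2:**
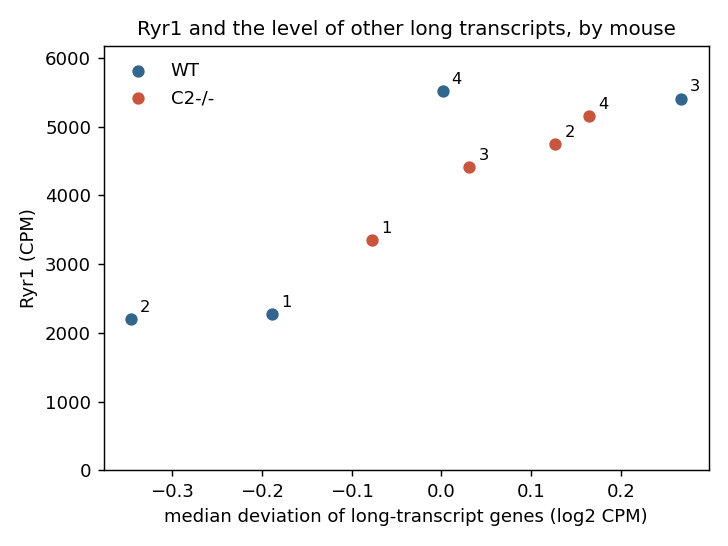
Level of Ryr1 in CPM (vertical axis, from 0) against the median log2 deviation of 547 genes with long transcripts (horizontal axis) in each of the 8 mice, by genotype. WT replicates 1 and 2 and C2-/- replicate 1 are lowest on both axes, and WT replicate 4 is highest for Ryr1 near 0 on the horizontal axis.

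Casq1 (gene ID 12372, chr1:172209894-172219895) encodes the calsequestrin of fast fibres, which holds calcium inside the reticulum beside the release channel. It was at 2769, 1764, 2980 and 3501 CPM in the old WT mice and at 3327, 2856, 3171 and 3240 CPM in the old C2-/- mice. WT replicate 2 was the lowest, and the 7 others lay between 2769 and 3501 CPM with the genotypes mixed. The log2 fold change was 0.13 (SE 0.19, interval −0.29 to 0.56, adjusted p = 0.982 by edgeR), and −0.01 without WT replicate 2.

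Casq2 (gene ID 12373, chr3:102086339-102162632) encodes the calsequestrin of heart and slow fibres. The old WT mice had 28.6, 11.3, 20.9 and 8.74 CPM, and the old C2-/- mice 19.7, 8.31, 9.23 and 29.1 CPM. Each genotype had a pair of high mice and a pair of low mice, and no mouse lay between 11.3 and 19.7 CPM. Casq2 had a log2 fold change of −0.10 (SE 0.44, interval −1.07 to 0.87, adjusted p = 0.996 by edgeR). The SD of its log2 CPM over the 8 mice, 0.74, was above that of 94.1% of the tested genes.

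The 4 mice high for Casq2 were WT replicates 1 and 3 and C2-/- replicates 1 and 4. The same mice were the 4 highest for 616 of the 12542 tested genes (4.91%), so the split was not particular to Casq2. Among the listed markers of cell types it was found for 1 of 11 fast fibre genes (Myh2, the myosin heavy chain of type IIa fibres), 1 of 7 slow fibre genes (Myl3), 1 of 4 endothelial genes (Kdr) and 1 of 5 smooth muscle genes (Smtn). Myh2 was at 320 to 543 CPM in these mice and 185 to 269 CPM in the others, and Kdr at 44.1 to 49.4 and 24.3 to 30.5 CPM.

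The other slow fibre markers did not split the mice in this way. In the mice high for Casq2 the summed slow markers were 69.5 and 49.1 CPM (WT replicates 1 and 3) and 63.1 and 39.9 CPM (C2-/- replicates 1 and 4). In the mice low for Casq2 they were 40.5 and 73.0 CPM (WT replicates 2 and 4) and 36.4 and 40.4 CPM (C2-/- replicates 2 and 3). WT replicate 4, with the highest sum, also had the highest Myh7 (19.4 CPM). The heart markers, of which 4 of 5 were in the table, summed to between 2.53 and 9.24 CPM. Among them Nppa was at most 0.176 CPM, Myh6 lay between 0.312 and 6.33 CPM and Tnnt2 between 1.24 and 3.37 CPM. The part of cell or fibre makeup in the level of Casq2 was not tested.

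**Figure D3:**
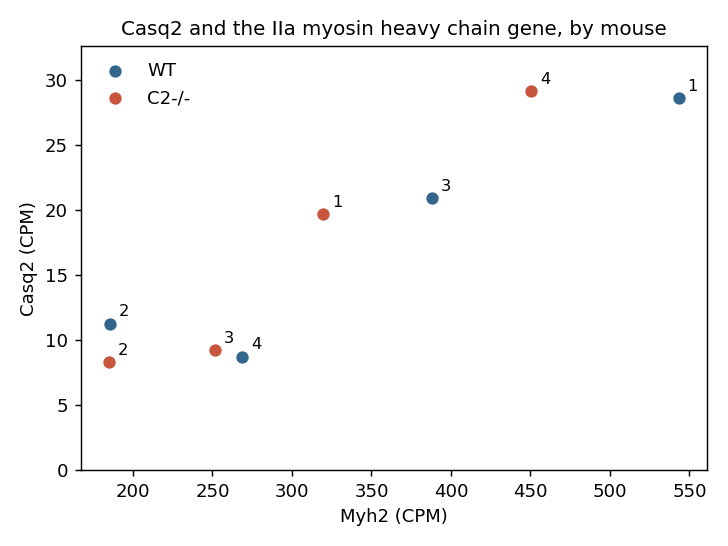
Level of Casq2 in CPM (vertical axis, from 0) against that of Myh2 in CPM (horizontal axis) in each of the 8 mice, by genotype. The 4 mice above 19 CPM of Casq2 are the 4 highest for Myh2, with 2 mice of each genotype among them.

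Atp2a1 (gene ID 11937, chr7:126445860-126463103) encodes the calcium pump that returns calcium to the reticulum in fast fibres. It was at 57201, 63123, 51055 and 63681 CPM in the old WT mice and at 53674, 51980, 52996 and 58222 CPM in the old C2-/- mice. The genotypes overlapped, with the lowest and the highest mouse both WT. The log2 fold change was −0.18 (SE 0.14, interval −0.49 to 0.13, adjusted p = 0.968 by edgeR), and it stayed below 0 with any 1 mouse left out (−0.25 to −0.10). Its spread was small, and the SD of its log2 CPM over the 8 mice (0.17) was above that of only 22.7% of the tested genes.

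Atp2a2 (gene ID 11938, chr5:122453513-122502280) encodes the pump of slow fibres, heart and most other cells. The old WT mice had 25.8, 28.6, 32.6 and 32.1 CPM, and the old C2-/- mice 31.1, 34.1, 30.2 and 39.0 CPM. The 2 highest mice were C2-/- and the 2 lowest were WT, with overlap between 30.2 and 32.6 CPM. A log2 fold change of 0.11 was estimated (SE 0.13, interval −0.18 to 0.40, adjusted p = 0.975 by edgeR). Without any 1 mouse the estimate stayed above 0 (0.03 to 0.19).

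Sln (gene ID 66402, chr9:53850251-53853849) encodes sarcolipin, a small membrane protein that binds SERCA and lowers its transport of calcium. It was at 1.97, 17.5, 0.878 and 1.55 CPM in the old WT mice, from 50, 504, 23 and 46 counts. The old C2-/- mice had 1.51, 3.16, 3.17 and 5.34 CPM, from 39, 82, 90 and 150 counts. WT replicate 2 lay far above all others, and the 3 other WT mice, at 1.97 CPM and below, overlapped only with the lowest C2-/- mouse.

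The log2 fold change of Sln was −0.82 (SE 0.84, interval −2.68 to 1.04, adjusted p = 0.969 by edgeR). Without WT replicate 2 it turned to 1.13 (unadjusted p = 0.0224, adjusted p = 0.740), and limma-voom gave 0.14 with all mice. Sln had the widest spread of the 10 genes, with an SD of log2 CPM of 1.32, above that of 99.1% of the tested genes. The direction of the difference in Sln thus changed when 1 mouse was left out, and also with the test used.

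Pvalb (gene ID 19293, chr15:78191117-78206351) encodes parvalbumin, the soluble calcium buffer of fast fibres. It was at 7174, 7889, 5476 and 7895 CPM in the old WT mice and at 7527, 6825, 6187 and 9285 CPM in the old C2-/- mice. The lowest mouse was WT and the highest C2-/-, and the others were mixed. Pvalb had a log2 fold change of 0.00 (SE 0.18, interval −0.39 to 0.39, adjusted p = 0.9998 by edgeR).

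**Figure D4:**
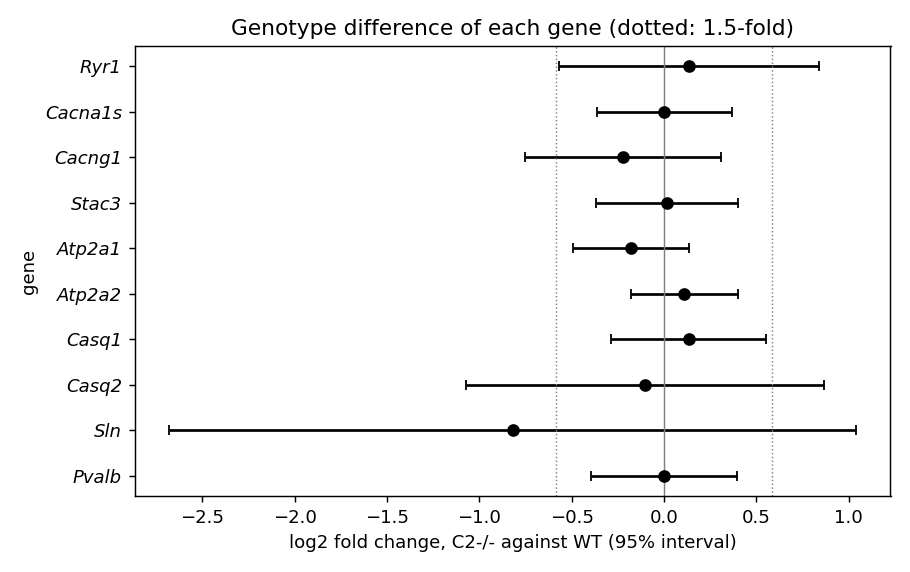
Log2 fold change of each of the 10 genes in old C2-/- against old WT mice (edgeR) with its 95% interval on a log2 axis, with dotted lines at 1.5-fold in either direction. All 10 intervals include 0, and those of Cacna1s, Stac3, Casq1, Atp2a1, Atp2a2 and Pvalb lie inside 1.5-fold.

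The precision of these comparisons differed between genes. For 6 of the 10 genes, Cacna1s, Stac3, Casq1, Atp2a1, Atp2a2 and Pvalb, the whole 95% interval lay within 1.5-fold in either direction. For Ryr1, Cacng1, Casq2 and Sln it reached further, so that a change of 1.5-fold in at least 1 direction was not outside the interval. The SD of the level in CPM was larger in the WT than in the C2-/- mice for 7 of the 10 genes, and for 66.3% of all tested genes. Without WT replicate 2 these were 6 of the 10 genes and 51.9%, so that the share of the 10 genes lay near that of all genes.

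WT replicate 2 was the highest of the 8 mice for Cacng1 and Sln and the lowest for Cacna1s, Stac3, Ryr1 and Casq1. Against the median of the other 7 mice it differed on the log2(CPM + 0.5) scale by 2.87 in Sln, 0.88 in Cacng1, −0.53 in Stac3, −0.59 in Cacna1s, −0.85 in Casq1 and −1.11 in Ryr1. Within the voltage sensor complex, the gamma subunit was thus high and the pore-forming subunit and its adaptor low in the same animal. Atp2a1, Atp2a2, Casq2 and Pvalb were at neither end of their ranges in this mouse.

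The same mouse had the highest level of 6 of 6 genes listed as markers of denervated muscle. These include Chrna1, a subunit of the acetylcholine receptor (57.3 CPM), Ncam1 (36.4 CPM), Runx1 (20.4 CPM) and the muscle regulatory factor Myog (15.9 CPM). Their sum was 132 CPM in WT replicate 2 and between 40.2 and 57.4 CPM in the 7 other mice. This mouse was also lowest for the share of reads from long transcripts, and 1 of 3 mice with high immediate early genes (730 CPM, with 1447 CPM in WT replicate 4, 1046 CPM in C2-/- replicate 2 and 151 to 194 CPM elsewhere). The part of these in the levels of the 10 genes was not tested.

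**Figure D5:**
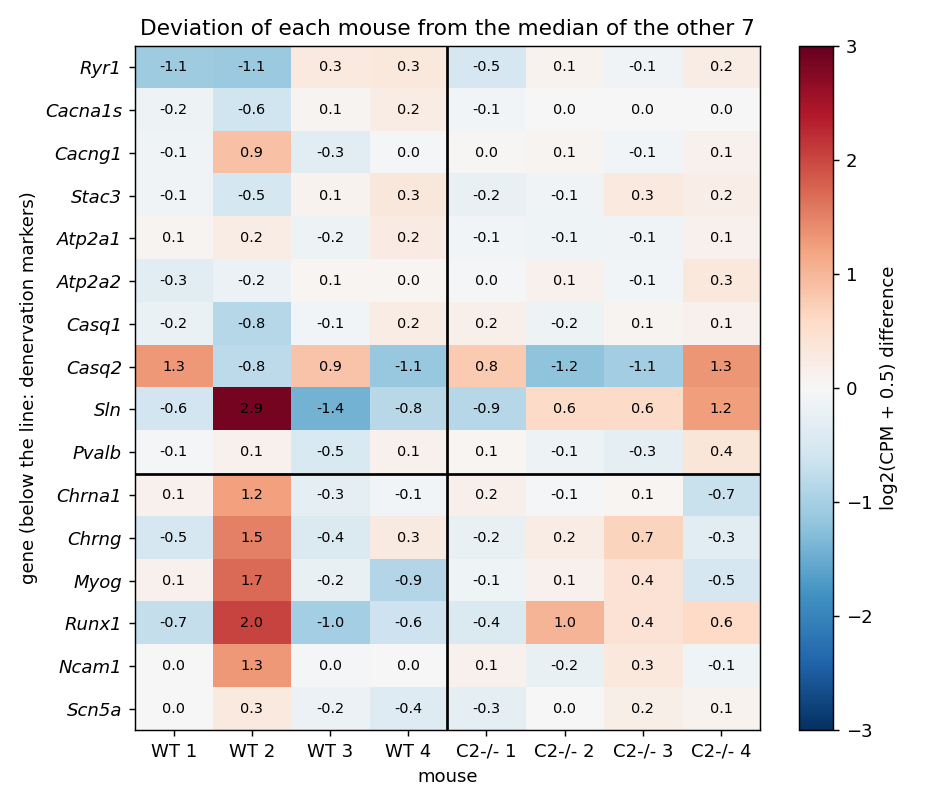
Difference on the log2(CPM + 0.5) scale (colour and printed value) of each gene (rows) in each mouse (columns) from the median of the other 7 mice, for the 10 genes and, below the line, 6 markers of denervated muscle. WT replicate 2 has the largest difference, 2.87 in Sln.

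The wider calcium pathway was described by the same fit. Of 70 further genes listed for the triad, the reticulum store, store-operated entry, extrusion, mitochondrial uptake, calmodulin signalling and the inositol trisphosphate receptors, 69 were in the table and 65 were tested. Of these, 37 estimates were higher and 28 lower in C2-/- mice, beside 5735 higher and 6802 lower of all 12542 tested genes. An unadjusted p under 0.05 by edgeR was found for 0 of 65, against 5.29% of all tested genes, with 1 by DESeq2. Their log2 fold changes had a median of 0.02 and lay between −0.25 and 0.36, all within 1.5-fold. WT replicate 2 was the lowest mouse for 36 of the 69 genes, against 29.0% of all tested genes. Without it 24 estimates were higher and 41 lower, with a median of −0.05, and 1 gene, Slc8a1, had an unadjusted p under 0.05 by edgeR.

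By role, 10 of the 13 tested triad genes had lower estimates and 3 higher ones (12 and 1 without WT replicate 2). The smallest unadjusted p was that of Cacnb1, the beta subunit of the dihydropyridine receptor, at 396, 360, 351 and 364 CPM in WT and 315, 320, 330 and 352 CPM in C2-/- mice. Its highest C2-/- mouse only just reached the lowest WT mouse, and its log2 fold change was −0.22 (SE 0.10, unadjusted p = 0.0506, adjusted p = 0.943 by edgeR). Tmem38b, a counter-ion channel of the reticulum, had −0.20 (unadjusted p = 0.209 by edgeR).

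All 7 tested genes of calcium extrusion across the plasma membrane had higher estimates in C2-/- mice, with a median log2 fold change of 0.24, and 0 of 7 passed an unadjusted p of 0.05. WT replicate 2 was the lowest mouse for 5 of them, against 29.0% of all tested genes. Without it 6 were higher and 1 lower, with a median of 0.14. Atp2b4, a plasma membrane calcium pump, had 0.28 (unadjusted p = 0.115 by edgeR). Slc8a1, the sodium-calcium exchanger, had 0.24 (unadjusted p = 0.172 by edgeR), and 0.39 (unadjusted p = 0.0181, adjusted p = 0.706) without WT replicate 2. The summed fibroblast markers, at 478 to 640 CPM in C2-/- and 277 to 436 CPM in WT mice, moved the same way. Of 5 smooth muscle markers 4 were higher, with a median of 0.25, and 3 without WT replicate 2, with a median of 0.098. Markers of macrophages (4 of 4), tendon (3 of 4) and adipocytes (3 of 4) were also mostly higher, with the same counts without WT replicate 2. Of 4 endothelial markers 2 were higher, and 0 without that mouse. Higher estimates were fewer for blood (1 of 3), satellite cell (1 of 3), heart (0 of 2), denervation (0 of 5), slow fibre (1 of 7) and fast fibre markers (4 of 11). Without WT replicate 2 these were 2, 0, 0, 4, 0 and 6. Of the slow fibre markers, 2 had an unadjusted p under 0.05 by edgeR, both lower in C2-/- mice. Myl2 had −1.66 (unadjusted p = 0.00402, adjusted p = 0.615, 0.385 to 3.83 CPM). Myh7 had −2.47 (unadjusted p = 0.0322, adjusted p = 0.914, 0.347 to 19.4 CPM). The part of cell makeup in the extrusion genes was not tested.

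Of the 8 tested genes of the reticulum store 4 were higher and 4 lower, of the 8 genes of store-operated entry 5 and 3, of the 7 tested mitochondrial genes 4 and 3, and of the 3 inositol trisphosphate receptors 3 and 0. Of the 19 genes of calmodulin and calcineurin signalling 11 were higher and 8 lower. Without WT replicate 2 these counts were 5 and 3, 3 and 5, 2 and 5, 2 and 1, and 5 and 14 in the same order. In this last group Calm2, which encodes calmodulin, had a log2 fold change of 0.27 (unadjusted p = 0.0960 by edgeR), and the transcription factor Nfatc2 had −0.22 (unadjusted p = 0.213 by edgeR).

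For each of the 10 genes the tested genes with the most similar pattern over the 8 mice were sought by Pearson's r of log2 CPM. Each r is the highest of 12541 and is given as a description. For the genes set apart in WT replicate 2, Cacng1 was closest to Tmem214 (r = 0.996) and Sqstm1 (0.991), and Sln to Cog6 (0.981) and Wdr75 (0.976). Ryr1 was closest to Igf2r (0.990) and Wdr7 (0.981), Cacna1s to Gpr155 (0.980) and Gdap1 (0.975), Stac3 to Cbwd1 (0.977) and Wdr35 (0.971), and Casq1 to Klhl8 (0.985) and Parp11 (0.971). For the others, Casq2 was closest to Tmem204 (0.956) and Arhgef15 (0.937), Atp2a1 to Stk26 (0.968) and Smyd4 (0.960), Atp2a2 to Pdgfrl (0.951) and Thsd7a (0.948), and Pvalb to Sh2d6 (0.947) and Nfatc2ip (0.941).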

How the data were processed

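Libraries of 4 old WT and 4 old C2-/- mice were grouped by the genotype in their labels. The deposited table gave expected counts per gene, not normalized, and TPM that the authors had computed. The study's methods name HISAT, GRCm38.p6 and featureCounts, and the submitters' processing notes also name Bowtie2 and DESeq2. In each library 5.50% to 6.53% of the values were not whole, and they were rounded before testing. Whether counting used strand is not given in the sources used here, so overlapping genes such as Casq2 and Vangl1 cannot be separated. The 8 columns of FPKM and the authors' log2 fold changes, p-values and q-values were not used. Of 16687 rows, 16686 had a gene ID.

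Testing used edgeR 4.0.16 in R 4.3.3 (quasi-likelihood test, TMM factors of 0.929 to 1.03, default filter on low counts, 12542 genes, Benjamini-Hochberg adjustment over all of them). A call required an adjusted p under 0.05 and a change above 1.5-fold. CPM was computed from unscaled library totals. Alternatives were DESeq2 1.42.0 (with its own size factors), limma-voom (limma 3.58.1), RLE scaling, other filters, a replicate block, each mouse left out, and, chosen after seeing the data, the 3 mice with the fewest long-transcript reads left out. Transcript lengths came from GENCODE vM21, and long-transcript deviations from 8603 genes of at least 5 CPM on average. The test was tried on simulated data.

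The named genes were the 10 genes, Mybpc2, the 3 other calcium genes with the smallest p in each direction and the 2 genes most like each of the 10. Other genes named with values come from the listed cell type and denervation markers and were picked after their values were seen, Myh2, Myl3, Kdr and Smtn because they split the mice as Casq2 did. The genes and lists were chosen with earlier results of these data known. With 4 mice per genotype, p-values cover the spread between these mice.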

Additional observations from a re-analysis of the deposited data

Results flagged for a closer look

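Of 20 groups of 4 mice examined, 10 genes in each genotype, 2 held a mouse far from the 3 others, and chance alone gives about 1 in 20. Sln was at 17.5 CPM in WT replicate 2, far above the other WT mice, which lay between 0.878 and 1.97 CPM. Cacna1s was at 1566 CPM in C2-/- replicate 1, below the other C2-/- mice at 1659 to 1669 CPM, a small step in a narrow group that lay inside the range of the WT mice.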

How the results depend on the processing

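With 4 mice per genotype, none of the 10 genes passed the adjusted threshold under any of the 15 alternatives, and the lowest adjusted p was 0.633 (Sln). Beside the 4 genes called over the whole table, DESeq2 called 38 and the fit without the 3 mice with the fewest long-transcript reads 2. With 1 mouse left out, this count lay between 4 and 7 (7 without WT replicate 2) and the count at an unadjusted p under 0.05 between 506 and 983 (663 with all mice, 983 without WT replicate 3). Of the 10 genes, between 0 and 1 passed an unadjusted p of 0.05 with 1 mouse left out, and 1 without the 3 mice, in both cases Sln. Of the 65 calcium genes the count was 1 by DESeq2 (Cacnb1), between 0 and 2 with 1 mouse left out (1 without WT replicate 1, WT replicate 2 or C2-/- replicate 4, and 2 without WT replicate 3) and 2 without the 3 mice.

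The log2 fold change with 1 mouse left out ran from −0.062 to 0.415 for Ryr1, −0.12 to 0.16 for Cacna1s, −0.36 to 0.13 for Cacng1, −0.093 to 0.18 for Stac3, −0.014 to 0.32 for Casq1, −0.52 to 0.22 for Casq2, −1.16 to 1.13 for Sln and −0.12 to 0.10 for Pvalb. Atp2a1 and Atp2a2 kept their direction. Without the 3 mice it was −0.26 for Ryr1, −0.21 for Cacna1s, 0.13 for Cacng1, −0.12 for Stac3, −0.13 for Casq1, 0.033 for Casq2 and 1.60 for Sln (unadjusted p = 0.00324, adjusted p = 0.633 by edgeR). Sln also reversed with limma-voom (0.14) and with the replicate block (0.12). The cause was not tested.

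The deviations of same-numbered mice correlated at 0.267, 0.042, −0.0507 and 0.0212. Those of differently numbered mice correlated at −0.226 to 0.202, so that the value of 0.267 for replicates 1 was the highest. Whether equal numbers pair the mice cannot be decided from so few weak correlations, and the main fit used no pairing. With the replicate block 4 genes passed the adjusted and 660 the unadjusted threshold, with 0 of the 10 genes among either. The 58 other values of the 10 genes under alternatives with all 8 mice kept their direction.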
